A study of Homo sapiens with 20 samples.

Results

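The miRNAs described here are the late-numbered ones of the human catalogue, those whose names carry a number from 3100 to 5200. Most entries in that range came from deep sequencing, are poorly conserved between animals and are present at low levels. Of 2588 mature miRNAs in the deposited tables, 824 had such a number, after miR-3200, miR-3615, miR-4286, miR-4326, miR-4454, miR-4521, miR-4787 and miR-5001 were left out. Members were chosen by their read totals: the 90 with at least 100 reads summed over all 20 libraries, which come from 78 hairpins. A further 580 had 1 to 99 reads and 154 had none. The members with the fewest reads were miR-4685-3p (100 reads) and miR-4664-3p, miR-4766-3p and miR-5088-3p (101 reads each), and the nearest left out were miR-3136-5p (97 reads), miR-4746-5p (96), miR-4507 (94) and miR-4429 (93). Because reads of all groups counted toward the 100, a member high in a single group could enter through that group, so counts of members are descriptions of this list.

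The libraries hold small RNA of 2 human lines. HCT116 was derived from a colon cancer, HEK293E from embryonic kidney. Cells of both lines that lack DROSHA had received either full-length DROSHA or DROSHA-p140, with 3 libraries for each form in each line. Among HCT116 cells there were also 1 library of untreated wild type, 1 of knockout cells given GFP, and 3 each of wild type held for 72 hr in 9.1% or 0.1% fetal bovine serum (FBS). The labels name no clone for the knockouts and do not say whether replicates were separate cultures, so the p-values below measure the spread between these libraries, which may be technical.

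A miRNA is a short RNA that pairs with messenger RNAs through its seed, bases 2 to 8 from its 5′ end, and lowers their output. In the usual route the nuclease DROSHA cuts a hairpin out of the primary transcript in the nucleus, and DICER then trims the hairpin to the mature arms, named 5p and 3p by their side of the hairpin. Some hairpins bypass DROSHA: a mirtron is a short intron that folds into a hairpin after splicing, so that an arm ends exactly where the intron ends. DROSHA-p140 is a shorter form that lacks the proline-rich, disordered start of the protein, and the series title asks what that region does for miRNAs that lie in introns.

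The sequences that the results turn on come from RefSeq (GRCh38.p14), which held 76 of the 90 members. The first 3 fell with p140 in both lines and are shown with the seed in capitals. Their positions are chr22:46091059-46091080 on the plus strand, in an intron of MIRLET7BHG, for miR-3619-5p, chr16:543336-543354 on the plus strand, in an intron of CAPN15, for miR-3176, and chr19:813627-813646 on the plus strand, with no host gene on that strand, for miR-3187-3p.
miR-3619-5p: uCAGCAGGcaggcuggugcagc
miR-3176: aCUGGCCUgggacuaccgg
miR-3187-3p: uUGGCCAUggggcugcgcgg
The seed of miR-3619-5p is also that of miR-214-3p and miR-761. The other member that fell in HCT116, miR-4664-5p, comes from an intron of FAM83H.

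The next 7 are shown because each ends on the last base of an annotated intron, the mirtron layout at the 3′ end, and the capitals mark the final AG that also ends the intron. Their hosts are PHC2, a Polycomb protein (miR-3605-3p, chr1:33332405-33332427, minus strand), ARF1, a GTPase of the Golgi (miR-3620-3p, chr1:228097320-228097341, plus), HPS1 (miR-4685-3p, chr10:98431292-98431313, minus), the ion channel PIEZO1 (miR-4722-3p, chr16:88716278-88716299, minus), the receptor ERBB2 (miR-4728-3p, chr17:39726537-39726561, plus), WDR26 (miR-4742-3p, chr1:224398227-224398249, minus) and ATP6V0A1, a subunit of the proton pump V-ATPase (miR-5010-3p, chr17:42514267-42514288, plus).
miR-3605-3p: ccuccguguuaccuguccucuAG
miR-3620-3p: ucacccugcaucccgcacccAG
miR-4685-3p: ucucccuuccugcccuggcuAG
miR-4722-3p: accugccagcaccucccugcAG
miR-4728-3p: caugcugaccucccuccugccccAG
miR-4742-3p: ucuguauucuccuuugccugcAG
miR-5010-3p: uuuugugucucccauuccccAG
The intron that holds the ARF1 hairpin is 79 bases long and the PIEZO1 intron 83 bases, while those of PHC2 (1439 bases) and HPS1 (2648 bases) are longer.

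The last set shows members whose levels set the lines, the knockout or the serum states apart, again with the seed in capitals. miR-3613-5p was the member with the most reads in all, miR-3158-3p and miR-4707-5p were lost in the knockout, both arms of miR-3614 rose in low serum, and miR-4443 and miR-3144-3p were high in HEK293E. They lie at chr13:49996465-49996486 (minus strand, an intron of DLEU2), chr10:101601427-101601448 (minus, with a second copy of the hairpin on the plus strand in an intron of DPCD), chr14:22956998-22957020 (minus, HAUS4), chr17:56891319-56891341 and chr17:56891281-56891303 (minus, TRIM25), chr3:48196572-48196588 (plus, no host gene) and chr6:120015226-120015247 (plus, no host gene), in the order shown.
miR-3613-5p: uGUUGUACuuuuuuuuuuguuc
miR-3158-3p: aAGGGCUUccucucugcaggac
miR-4707-5p: gCCCCGGCgcgggcggguucugg
miR-3614-5p: cCACUUGGaucugaaggcugccc
miR-3614-3p: uAGCCUUCagaucuugguguuuu
miR-4443: uUGGAGGCguggguuuu
miR-3144-3p: aUAUACCUguucggucucuuua
Among the 76 with a sequence, 2 seeds occurred in a pair of members: miR-3180 and miR-3180-3p shared one, and miR-4458 (chr5:8460933-8460951, plus strand) and miR-4500 (chr13:87618671-87618687, minus strand) carry the let-7 seed.
miR-4458: aGAGGUAGguguggaagaa
miR-4500: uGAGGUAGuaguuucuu

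The members took up little of each library, and most in the cells without DROSHA. Their share of miRNA reads was 0.0683% in untreated wild-type HCT116, 0.124 to 0.145% in 9.1% FBS and 0.0691 to 0.0781% in 0.1% FBS. In rescued HCT116 cells it was 0.174 to 0.211% (full-length) and 0.257 to 0.496% (p140), and in rescued HEK293E cells 0.523 to 0.615% and 0.592 to 0.687%. In the knockout with GFP it was 1.45%. The groups with p140 and with full-length DROSHA did not overlap in HCT116 and did in HEK293E. A list of 14 miRNA names known to need no DROSHA, written with earlier results of these data known and led by miR-320a, held 1.27% of reads in untreated wild type, 2.74 to 4.98% and 7.05 to 21.0% in the HCT116 rescues, 10.6 to 12.3% and 15.5 to 20.0% in HEK293E, and 69.7% in the knockout with GFP. In 9.1% and 0.1% FBS it held 0.821 to 1.18% and 0.914 to 1.35%.

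**Figure D1:**
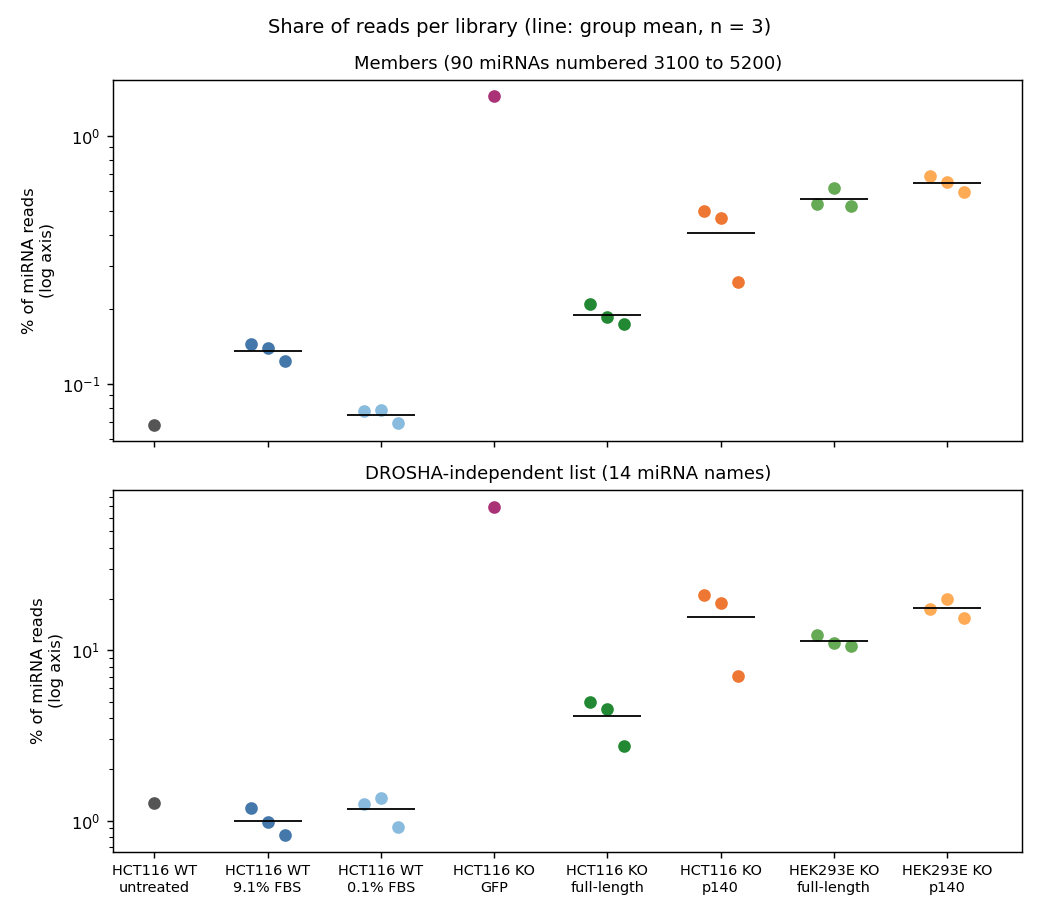
Share of all miRNA reads (percent, log axis) held by the 90 members (top) and by the DROSHA-independent list (bottom) in each library, by group; each point is 1 library and lines are means of 3. Both shares were highest in the knockout with GFP, at 1.45% and 69.7%.

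Libraries held 38288 reads in the knockout with GFP, 135084 to 873718 in the rescued cells, 856658 in untreated wild type and 1745624 to 2822317 in the serum experiment. The labelled cell types were checked against marker miRNAs. The 5 miRNAs of colon epithelium summed to 448 to 487 CPM (reads scaled to the library total) in HCT116 cells with the full protein, 260 to 352 under p140 and 499 to 605 in HEK293E rescued with the full protein, against 37342 in untreated wild-type HCT116. The gap lay in miR-200c-3p (mean 180 CPM with the full protein, 25988 in untreated wild type) and miR-141-3p (74.4 and 11167). With the full protein miR-192-5p (51.2 and 42.0) and miR-194-5p (164 and 142) were not lower, and miR-215-5p was very low in both (1.22 and 2.33). The knockout with GFP, 1 small library, held 2664 CPM of miR-200c-3p and 1384 of miR-141-3p. Of the neural markers, miR-9-5p was also lower with the full protein (169) than in untreated wild type (1740). miR-128-3p was not (2040 and 1433), and miR-124-3p was very low in both (0.873 and 1.17). The low miR-200c-3p and miR-141-3p go against the label of the rescued cells, while with the full protein the rest of the colon list does not. HCT116 therefore stands below for the libraries labelled so, and all results with p140 in HCT116 rest on them. The 3 miRNAs of the kidney line summed to 123115 to 148497 CPM in HEK293E and 9176 to 12618 in HCT116, both with full-length DROSHA. In bulk RNA, fewer cells that make a miRNA and less of it per cell cannot be told apart. Markers of blood (6 miRNAs) stood at 455 to 953 CPM in HEK293E rescued with the full protein and 111 to 281 under p140, markers of muscle (3) at 58.0 to 64.4 and 32.4 to 66.6. The blood sum was mostly miR-486-5p (means of 655 and 174 CPM). Neural markers (3) stood at 2060 to 2327 CPM in HCT116 rescued with the full protein, against 438 to 743 under p140, and at 3472 to 4281 and 1750 to 2813 in HEK293E. That difference lay mostly in miR-128-3p (means of 2040 and 379 CPM in HCT116, 2065 and 426 in HEK293E). The means of miR-9-5p were not lower under p140 (169 and 174 in HCT116, 1644 and 1668 in HEK293E). In HEK293E miR-124-3p stood at 98.9 and 56.0. The part of these markers in the results was not tested.

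Which members need DROSHA was read from the knockout with GFP against untreated wild type, 1 library each, so there is no replicate and no test between conditions. Most other miRNAs were depleted in the knockout, so shares of its reads are inflated for whatever remains. Ratios were therefore taken relative to the reads of the DROSHA-independent list (26702 in the knockout, 10844 in wild type), of which miR-320a gave 23416 and 10185. A member was called dependent where the whole exact 95% interval (Clopper-Pearson, counting error only) lay more than 4-fold below wild type, kept where the whole interval lay above that bound, and otherwise not resolved. By that rule 15 of 90 members were dependent, 20 were kept and 55 were not resolved. Of 557 other miRNAs with at least 100 reads, 360 were dependent (64.6%) and 61 kept (11.0%).

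The clearest dependent member was miR-3613-5p, which comes from an intron of DLEU2, a long non-coding RNA gene. It had 75 reads in wild type and 1 in the knockout, a ratio of 0.00541 (0.000135 to 0.0311). Reads of miR-3158-3p, listed under 2 hairpins of which one lies in an intron of DPCD, numbered 18 and 0, and those of miR-3187-3p 13 and 0. For miR-4664-5p the numbers were 18 and 1, a ratio of 0.0226 (0.000542 to 0.143). The arms of miR-3667, in an intron of C22orf34, had 20 and 2 reads (3p) and 13 and 0 (5p).

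Of the 15 dependent members, 11 had no read in the knockout. A count of 0 there allows up to 3 reads, or 78.4 CPM, while the highest wild-type level, that of miR-3613-5p, was 87.5 CPM. By the same rule in plain CPM 0 members were dependent and 45 kept. The group also held miR-4707-5p and miR-4707-3p, both from HAUS4, a gene of the augmin complex of the spindle, along with miR-3611, miR-3909, miR-3934-5p, miR-4713-5p, miR-3157-5p and miR-3194-5p. miR-3614-3p, from TRIM25, an E3 ligase of the antiviral RIG-I pathway, was the least depleted, with 48 and 13 reads and a ratio of 0.110 (0.0547 to 0.206). With the 3 libraries in 9.1% FBS as wild type, 45 members were dependent, among them 14 of these 15; miR-3614-3p was then not resolved.

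The 20 kept members were led by 4 with 40 to 43 reads in the small knockout library. miR-3605-3p, whose last base is the last base of a PHC2 intron, had 43 reads against 13 in wild type, a ratio of 1.34 (0.709 to 2.72). miR-3928-3p had 41 against 5 (3.33, 1.32 to 10.8), miR-4745-3p 40 against 4 (4.06, 1.47 to 15.6) and miR-3929 40 against 26 (0.625, 0.372 to 1.07). In CPM, where the knockout is inflated, miR-3605-3p stood at 1123 in the knockout and 15.2 in wild type.

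Both arms of the ARF1 hairpin, miR-3620-3p (26 against 4 reads) and miR-3620-5p (11 against 1), were kept too, as were miR-5010-3p (10 against 4), miR-4728-3p (12 against 0) and miR-4745-5p (18 against 1), which starts 1 base from the start of a PTBP1 intron. miR-4741, from RBBP8, had 23 reads in the knockout and none in wild type, and miR-4785, from RBMS1, had 15 and none. The others were miR-3188 (16 against 1), miR-4485-3p (18 against 5), miR-4466 (15 against 2), miR-4461 (13 against 3), miR-3143 (10 against 2), miR-3605-5p (10 against 3), miR-4435 (9 against 0), miR-3687 (8 against 2) and miR-4726-5p (4 against 0). With 9.1% FBS as wild type 13 of the 20 stayed kept and none became dependent.

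**Figure D2:**
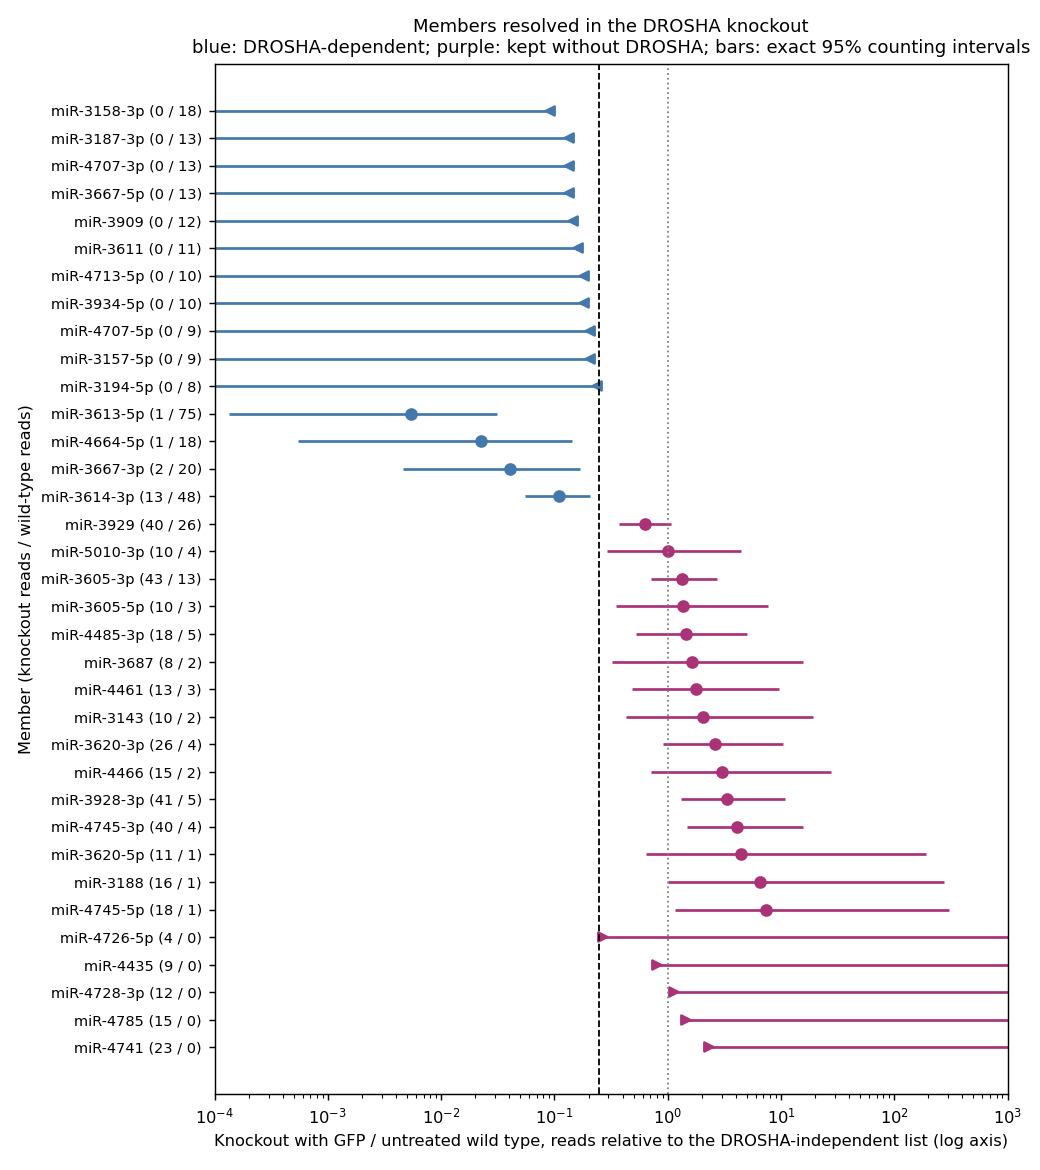
Ratio of knockout with GFP to untreated wild type for the 35 resolved members, relative to the reads of the DROSHA-independent list (log axis). Circles are ratios, triangles mark the upper or lower limit where 1 library had no read, bars are exact 95% counting intervals, the dashed line marks a 4-fold reduction and the dotted line 1; reads of both libraries stand beside each name. The 15 dependent members (blue) lie wholly left of the dashed line and the 20 kept members (purple) wholly right of it.

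Arms of a hairpin did not always share a class. miR-3614-3p was dependent, while miR-3614-5p had 37 reads in the knockout and 53 in wild type and was not resolved. miR-3613-3p, the other arm of the DLEU2 hairpin, had 0 and 3 reads and was not resolved. Of the members that fell with p140, miR-3176 and miR-3619-5p had 0 reads in the knockout and 4 each in untreated wild type, too few to resolve, and both were dependent with 9.1% FBS as wild type. By position, 9 of the 15 dependent members lay in introns only, against 4 of the 20 kept members, while for 3 and 8 the hairpin touched an exon in some transcripts and none in others. The hairpin filled an intron or came within 5 bases of an end of one for 6 of the 20 kept members and 3 of the 15 dependent ones. Over all 90 members 2 filled an intron and 16 abutted an end, against 20 and 37 of the 557 others. These counts describe the list and were not tested.

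With p140 in place of full-length DROSHA, most members that could be tested in HCT116 rose and 4 fell steeply. Of the 44 members that passed the count filter, 32 rose (background over all 446 miRNAs tested 28.5%) and 4 fell (background 31.2%), by edgeR's quasi-likelihood test with Benjamini-Hochberg adjusted p under 0.05. The filter asked for 3 libraries above a read level, and a member could pass through the group where it was high: 20 of the 44 passed only through p140, of which 18 rose, 3 only through full-length DROSHA, all of which fell, and 17 through either group alone, of which 14 rose and 1 fell. These counts therefore describe the tested members and stand for no others. Fitted without the filter, 26 of 89 members rose (6.90% over all 1825 miRNAs with a read in these libraries) and 12 fell (11.3% over all). Members were chosen for at least 100 reads over the 20 libraries, which 647 miRNAs of the series reach. Of the 1825 only 446 pass the count filter, so these shares are no like background for the members. In plain CPM 54 of the 90 had a higher mean with p140 and 35 a lower one. The median log2 change was 1.58 over the tested members and -0.11 over all miRNAs. The DROSHA-independent list had a median of 1.87, with 14 of 14 tested arms called higher. All these rises are on the TMM scale, which centres the bulk of miRNAs. On the scale of the DROSHA-independent list the median of all miRNAs moved by -1.52 to -1.63, 0 of the 44 members rose, 18 of the 32 changed sign, and 5 fell. Over all 446 miRNAs on the scale of that list 0 rose and 170 fell.

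All 4 that fell also passed the test on the scale of that list. miR-3619-5p, from the let-7b host gene, stood at 18.9, 21.2 and 22.5 CPM with full-length DROSHA and at 0, 0 and 2.76 with p140. With 49 reads against 1, the ratio of pooled reads was 0.0528 (exact 95% counting interval 0.00131 to 0.308), and the fitted log2 change was -4.07 ± 0.72 (SE, edgeR adjusted p = 0.0034). The groups did not overlap.

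Levels of miR-4664-5p were 44.2, 34.2 and 45.0 CPM with full-length DROSHA and 3.29, 0 and 8.27 with p140, a log2 change of -3.25 ± 0.60 (edgeR adjusted p = 0.0040). miR-3176, from CAPN15, stood at 36.6, 37.7 and 46.4 against 6.57, 6.68 and 2.76 CPM, which is -2.90 ± 0.43 on the log2 scale (edgeR adjusted p = 0.0019). miR-3187-3p stood at 115, 78.9 and 95.5 against 32.9, 26.7 and 38.6 CPM, which is -1.54 ± 0.30 (edgeR adjusted p = 0.0053). In none of the 3 did the groups overlap. Over the alternative settings in which they were tested, these 4 kept their call and direction, with log2 changes from -6.66 to -1.39. miR-3619-5p was tested in fewer of these settings than the other falls. miR-3619-5p, miR-4664-5p and miR-3176 passed the count filter only through the full-length libraries. Members this low with p140 were thus tested only if they were high with full-length DROSHA.

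Of the dependent members, the most abundant did not pass the test. miR-3613-5p had 251, 233 and 339 CPM with full-length DROSHA and 223, 180 and 245 with p140, a log2 change of -0.34 ± 0.24 (edgeR adjusted p = 0.25), with overlapping groups. miR-3667-3p changed by -0.11 ± 0.47 on the log2 scale and miR-4707-5p by -0.41 ± 0.30, neither past the threshold. In all, 7 of the 15 dependent members were tested, 1 rose (miR-3614-3p), 2 fell and the median was -0.34.

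Among the 20 kept members, 19 were tested, 18 rose, none fell and the median was 1.88. Over all 446 miRNAs tested 28.5% rose and 31.2% fell. Of these members, miR-3143, miR-3188, miR-3605-5p, miR-3620-5p, miR-4435, miR-4466, miR-4726-5p and miR-4728-3p passed the count filter only through p140. A fall was hardly open to them, so the counts describe the tested members only. miR-3687 did not pass the test, at 1.57 ± 0.67 (edgeR adjusted p = 0.077), but did with the replicate number as a block (edgeR adjusted p = 0.0061), and its reads cannot be told apart from those of a second copy. The 3p arm of the ARF1 hairpin, miR-3620-3p, stood at 66.9, 55.4 and 47.8 CPM with full-length DROSHA and 279, 240.5 and 124 with p140, a log2 change of 1.91 ± 0.35 (edgeR adjusted p = 0.0037). miR-4745-3p, from PTBP1, a regulator of splicing, stood at 63.1, 54.2 and 39.3 against 249.8, 240.5 and 93.7 CPM, which is 1.88 ± 0.41 (edgeR adjusted p = 0.0081). The groups did not overlap for either.

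The largest rises among all tested members were those of miR-5088-3p (log2 change 2.48 ± 0.44), which ends 1 base before the end of a PRMT1 intron, miR-4726-5p (2.35 ± 0.38), from MLLT6, miR-4443 (2.28 ± 0.59), miR-4742-3p (2.21 ± 0.56) and miR-3188 (2.13 ± 0.35). Next came miR-4466 (2.12 ± 0.52), miR-4435 (1.96 ± 0.43), the let-7 seed member miR-4458 (1.94 ± 0.44), miR-4745-5p (1.93 ± 0.54) and miR-3620-3p. All had edgeR adjusted p under 0.05 and no overlap between groups. Apart from miR-4745-5p and miR-3620-3p, they passed the count filter only through the p140 libraries, so that a member this low with full-length DROSHA was tested only if it was high with p140. Their levels were low: miR-5088-3p stood at 8.84, 3.53 and 5.62 CPM with full-length DROSHA and 46.0, 26.7 and 30.3 with p140, and miR-4443 at 21.5, 22.4 and 9.83 against 148, 90.2 and 30.3. On the scale of the DROSHA-independent list 9 of these 10 kept a positive change that did not pass the test, and miR-4745-5p changed sign.

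Of the 32 rises, 28 had no overlap between the groups, while groups did not overlap for 34 of all 44 tested members (background 64.8%). Replicate 3 with p140 held the lowest of the 3 p140 levels for 31 of the 32, and replicate 3 with full-length DROSHA the lowest of its group for 24. Those are also the libraries with the lowest share of the DROSHA-independent list in their groups, 7.05% and 2.74%. Its part in the rises was not tested. Without replicate 3 of p140 the count of rises was 42, and it was 18 without full-length replicate 2, 16 without full-length replicate 3, 20 without p140 replicate 1 and 18 without p140 replicate 2.

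**Figure D3:**
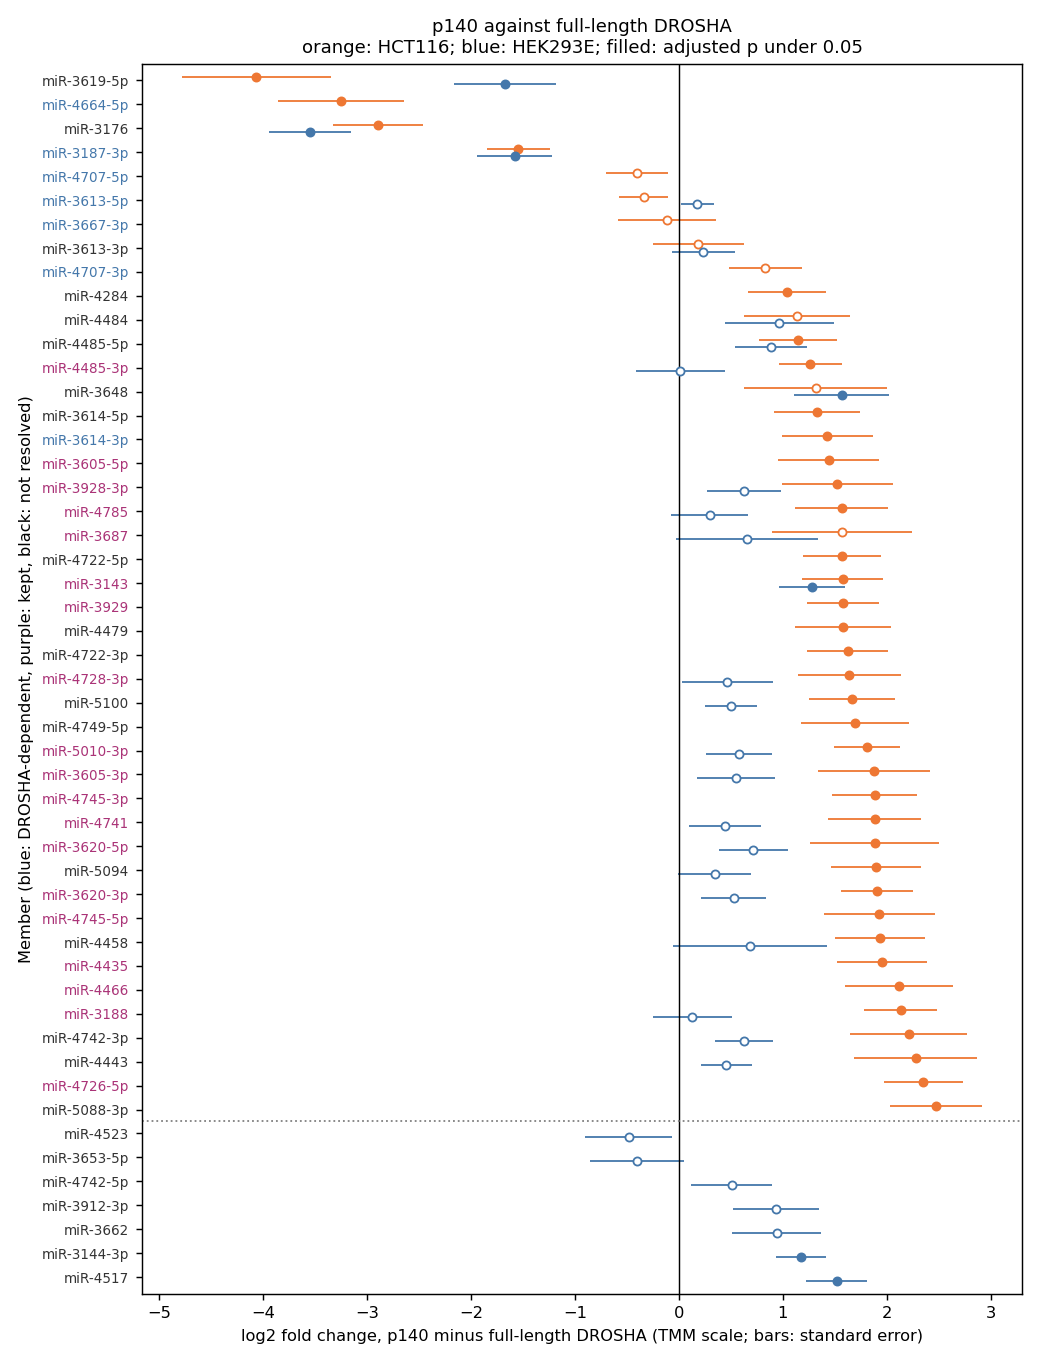
log2 fold change of p140 against full-length DROSHA for each tested member, with standard errors, in HCT116 (orange) and HEK293E (blue); filled points passed edgeR's test at an adjusted p under 0.05 and members under the dotted line were tested in HEK293E only. Names are coloured by knockout class. miR-3619-5p, miR-3176 and miR-3187-3p lie left of 0 in both lines, and in HCT116 32 members lie right of 0 with filled points.

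The arm's place relative to the intron end, a measure chosen after the data were seen, was set beside these changes. For 10 members an end of the mature arm lay within 5 bases of an intron end, the 7 printed above and miR-5088-3p, miR-4707-3p and miR-4745-5p. Of these 9 were tested in HCT116, 8 rose and none fell, with a median of 1.88, beside 32 rises and 4 falls of all 44 tested members. Over all 446 miRNAs tested 28.5% rose and 31.2% fell. Of the 9, miR-4707-3p, miR-4722-3p, miR-4728-3p, miR-4742-3p and miR-5088-3p passed the count filter only through p140. A fall was hardly open to these, so the counts describe the tested arms only. Among other intron-hosted members 22 were tested, 13 rose and 3 fell. No difference between these sets was tested. By annotation alone, 17 members in introns only were tested, of which 9 rose and 3 fell, and 10 between genes, of which 8 rose and 1 fell. The same measure over miRNAs that are no members gave 38 rises and 1 fall of 39 near an intron end, and 35 rises and 118 falls of 265 away from one. miR-4722-5p and miR-4722-3p, the arms of the short PIEZO1 intron, rose together by 1.57 ± 0.37 and 1.62 ± 0.39 on the log2 scale.

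A total of 46 members were too low in HCT116 to pass the count filter, and among them 28 were lower with p140, 17 higher, and miR-3144-3p had no read. Of the 28, 17 did not overlap between the groups, and of the 17 higher ones 6 did not. These counts stand without a share over all miRNAs under the filter, and at such levels they can rest on few reads. miR-3130-5p, counted as lower without overlap, had 2, 2 and 2 reads against 0, 0 and 0. miR-4448, counted as higher without overlap, had 3, 4 and 3 against 3, 3 and 2 in the smaller p140 libraries. Reads of miR-3158-3p, a dependent member, were 14, 20 and 19 with full-length DROSHA and 2, 1 and 1 with p140. miR-5008-3p, from an intron of WNT9A, had 8, 12 and 5 against 0 in each, which makes it at least 3.22-fold lower. miR-3194-5p, from NFATC2, had 11, 7 and 17 reads against 0, 0 and 1. Fitted without the filter, 8 of the 46 were called lower and 1 (miR-4461) higher. The 8 were miR-3158-3p, miR-5008-3p, miR-3194-5p, miR-3657, miR-5008-5p, miR-3177-3p, miR-4783-3p and miR-4664-3p. Since the change itself helped decide which members passed the filter, the balance in these 46 and that in the 44 are not independent of each other.

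In HEK293E the same exchange of DROSHA forms moved fewer members. Of 32 tested, 4 rose (background over 416 miRNAs 5.29%) and 3 fell (background 21.2%) by edgeR's test, with a median of 0.52 against -0.04 over all miRNAs. That fit left replicate numbers out, although same-numbered HEK293E libraries deviated together (r 0.46, 0.31 and 0.29). With the number as a block 12 members rose and 3 fell, against 70 and 113 of all 416 miRNAs. The block gave 35 rises and 4 falls in HCT116, against 157 and 169 of all 446. Groups did not overlap for 13 of the 32 (background 42.3%). Only through full-length DROSHA 3 of the 32 passed the count filter, all of which fell, and only through p140 6, of which 1 rose. The 3 that fell also fell in HCT116. On the scale of the DROSHA-independent list, which moved the median of all miRNAs by -0.70, no member rose and 5 fell, while over all 416 miRNAs 4 rose and 212 fell.

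miR-3176 stood at 304, 217 and 334 CPM with full-length DROSHA and 15.2, 40.7 and 16.5 with p140 in HEK293E, a log2 change of -3.55 ± 0.39 (edgeR adjusted p = 9.1e-05). miR-3187-3p stood at 122, 188 and 209 against 68.5, 34.9 and 70.0 CPM, which is -1.58 ± 0.36 (edgeR adjusted p = 0.0083). miR-3619-5p stood at 54.4, 77.8 and 92.9 against 30.4, 5.81 and 32.9 CPM, which is -1.67 ± 0.49 (edgeR adjusted p = 0.027). Groups did not overlap for any of the 3. The call for miR-3619-5p was lost with DESeq2 and without full-length replicate 3, p140 replicate 2 or p140 replicate 3. Without both replicates numbered 3 it was lost too, as was that for miR-3187-3p. Over the alternatives the adjusted p went up to 0.16 for miR-3619-5p and 0.087 for miR-3187-3p. miR-4664-5p was under the filter in HEK293E, with 8, 14 and 24 reads against 1, 3 and 2, and was called lower when fitted without it (edgeR adjusted p = 0.0039).

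**Figure D4:**
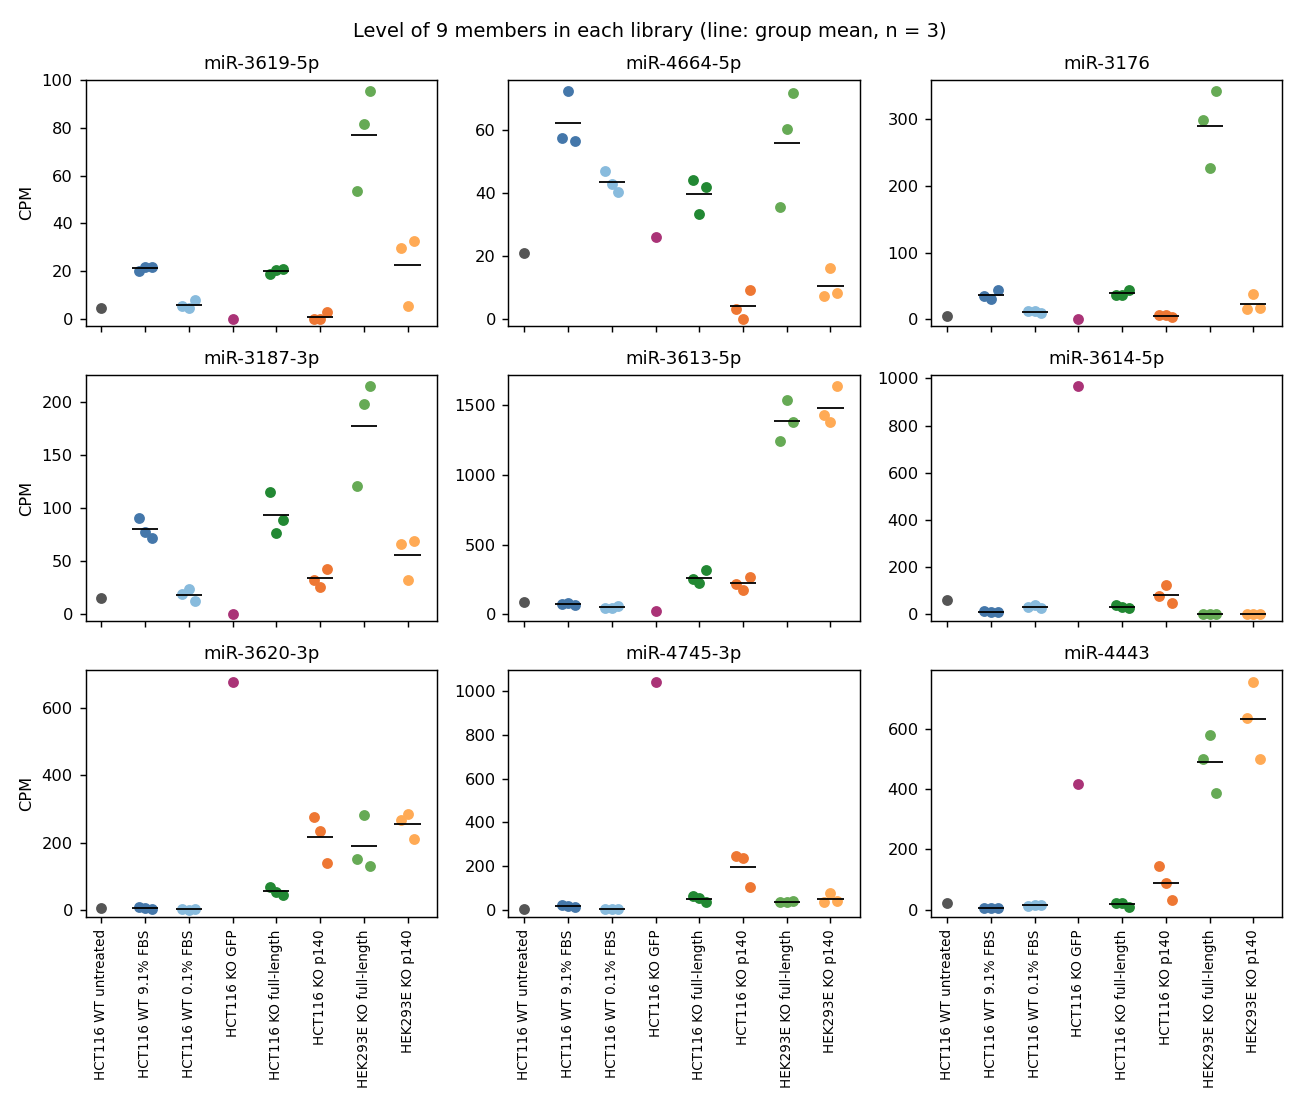
Level (CPM, linear axes from 0) of 9 members in each library of the 8 groups; each point is 1 library and lines are means of 3. miR-3619-5p, miR-4664-5p, miR-3176 and miR-3187-3p are lower under p140 in both lines, miR-3620-3p and miR-4745-3p are highest in the knockout with GFP, and miR-4443 is highest in HEK293E with p140.

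The 4 rises in HEK293E were those of miR-3648 (log2 change 1.57 ± 0.46), miR-4517 (1.52 ± 0.29), miR-3143 (1.28 ± 0.32) and miR-3144-3p (1.17 ± 0.24). Levels of miR-4517, which lies in NFATC2IP, were 63.5, 115 and 128 CPM with full-length DROSHA and 289, 343 and 264 with p140. Those of miR-3144-3p were 132, 127 and 154 against 373, 256 and 313. Neither overlapped between groups. None of the 4 passed the test on the scale of the DROSHA-independent list, and the call of miR-3648, which passed the count filter only through p140, was kept in 5 of 12 alternatives (adjusted p up to 0.13): it was also lost with DESeq2, without full-length replicate 1 or 3, without p140 replicate 1 or 2, and without both replicates numbered 3. miR-3143 also rose in HCT116, at 16.4, 20.0 and 28.1 against 75.6, 80.2 and 38.6 CPM, and was the only member called higher in both lines without the replicate block. With the replicate number as a block, 12 members rose in HEK293E and 3 fell, and over all 416 miRNAs rises went from 22 to 70. With it 9 members were called higher in both lines, a count given without its share over all miRNAs. They were miR-3143, miR-3620-3p, miR-3648, miR-4443, miR-4484, miR-4485-5p, miR-4742-3p, miR-5010-3p and miR-5100. With no block, the count of rises was 2 without p140 replicate 2 and 6 without full-length replicate 2.

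Of the 32 members that rose in HCT116, 17 were tested in HEK293E, where their log2 changes ran from 0.01 to 1.28 with a median of 0.53. Their HCT116 median was 1.88, but these 17 were picked by their rise in HCT116. A higher median there was thus partly fixed by the choice, and the 2 medians show no difference between the lines. The difference between the lines was tested as an interaction over the 12 rescue libraries. Of 48 members, 2 differed (background over 515 miRNAs 3.30%), both with a lower change in HEK293E, and 16 had an unadjusted p under 0.05 (background 20.4%). miR-3188 differed by -2.05 ± 0.53 on the log2 scale (edgeR adjusted p = 0.049). miR-4722-5p differed by a fitted -6.35 (edgeR adjusted p = 0.025), a value that depends on the prior count, because its HEK293E reads were 4, 2 and 4 with full-length DROSHA and 0 in each p140 library, at least 2.38-fold lower. With the replicate block 15 members differed, all lower in HEK293E, a count given without its share over all miRNAs. Without HCT116 p140 replicate 3 the count was 16, and it was 0 or 1 without any other single library, as it was with DESeq2 (1) and on the scale of the DROSHA-independent list (0).

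Comparing the lines at full-length DROSHA, 18 of 47 tested members were higher in HEK293E (background over 517 miRNAs 33.7%) and 10 higher in HCT116 (background 30.4%) by edgeR's test, 14 and 6 of them in members that passed the count filter only through the line where they were higher, and groups did not overlap for 33 (background 70.8%). Line, clone and handling cannot be told apart here, and miR-200c-3p and miR-141-3p are low in the HCT116 rescues as given above. miR-3144-3p had no read in HCT116 with full-length DROSHA and 29, 31 and 53 reads in HEK293E, at least 115-fold higher. miR-4443 stood at 30.7, 33.1 and 12.9 CPM in HCT116 and at 355, 397 and 267 in HEK293E, a log2 difference of 3.71 ± 0.34 (edgeR adjusted p = 1.2e-05), and miR-5100 differed by 3.14 ± 0.29.

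miR-4517 (2.52 ± 0.37) and miR-3653-5p (2.51 ± 0.52), whose hairpin overlaps the small nucleolar RNA SNORD125, were the next highest in HEK293E. In the other direction both arms of miR-3614 had 77 reads in HCT116 and none in HEK293E, each at least 8.37-fold higher in HCT116. The dependent members miR-3667-3p (42 reads) and miR-4707-3p (34 reads) also had none in HEK293E with full-length DROSHA. miR-4707-5p had 97 reads against 1, a ratio of 0.0316 (exact 95% counting interval 0.000792 to 0.180). miR-3929 stood at 133, 118 and 103 CPM in HCT116 and 9.52, 17.6 and 20.5 in HEK293E, which is -2.83 ± 0.33, and miR-4722-5p differed by -2.09 ± 0.40. Groups did not overlap for any of these members. miR-3613-5p, the most abundant member in both, was 1.33 ± 0.18 higher on the log2 scale in HEK293E, a call lost on the scale of the DROSHA-independent list. Members lower in HEK293E numbered 5 without HCT116 full-length replicate 1, 6 without replicate 2 and 17 without any 1 of the HEK293E full-length libraries.

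In wild-type HCT116 cells, low serum lowered many members and raised few. Of 64 tested, 25 fell (background over 577 miRNAs 20.3%) and 4 rose (background 25.5%) by edgeR's test, and the median was -0.67 against -0.03 over all miRNAs. Of the 25 falls, 17 were in members under 20 CPM in both groups, and 16 in members that passed the count filter only through the libraries in 9.1% FBS. Groups did not overlap for 33 of the 64 (background 54.9%).

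miR-4707-5p fell from 62.3, 71.5 and 44.1 CPM in 9.1% FBS to 20.8, 15.2 and 8.24 in 0.1% FBS, a log2 change of -2.05 ± 0.32 (edgeR adjusted p = 0.0014). miR-3187-3p fell from 77.3, 69.1 and 62.1 CPM to 22.1, 28.0 and 14.4, which is -1.70 ± 0.24 (edgeR adjusted p = 0.00086). Levels of miR-3176 were 29.2, 27.7 and 37.4 against 13.6, 14.2 and 9.89 CPM, which is -1.33 ± 0.23. No library of 1 group reached into the other for these 3.

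miR-3158-3p fell by 1.00 on the log2 scale and its 5p counterpart miR-3158-5p by 1.15; the hairpins they are listed under lie on opposite strands of the same stretch of DNA. The steepest falls were at low levels: miR-4745-5p (9.46 ± 1.99 to 0.749 ± 0.671 CPM, SD, n = 3), miR-4722-3p (12.9 ± 2.42 to 2.18 ± 0.810) and miR-4722-5p (13.4 ± 2.33 to 2.77 ± 0.158). miR-3619-5p fell as well, by 1.36. Thus 3 of the 4 members that fell with p140 in HCT116 fell in low serum, as did 6 of the 16 that rose with p140 and were tested there, and 25 of all 64 tested; these shares were not tested against each other. miR-4664-5p did not pass the test there, with 48.6, 64.4 and 49.1 against 53.8, 49.3 and 47.0 CPM and a log2 change of -0.11 ± 0.17.

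Both arms of miR-3614 rose in low serum. miR-3614-5p went from 13.6, 8.58 and 7.20 CPM to 37.6, 44.6 and 32.6, a log2 change of 1.96 ± 0.27 (edgeR adjusted p = 0.00069), and miR-3614-3p from 13.1, 10.0 and 8.10 to 37.0, 41.3 and 36.7, which is 1.88 ± 0.22. In plain CPM miR-3614-5p stood at 61.9 in untreated wild type, above all 6 serum libraries. miR-4443 rose from 3.89, 5.72 and 4.95 CPM to 15.6, 17.5 and 17.7, which is 1.80 ± 0.24. None of the 3 overlapped between groups. Unlike both arms of miR-3614, miR-4443 passed the count filter only through the libraries in low serum. A member this low at the higher serum level was thus tested only if it was high in low serum. miR-4713-5p, a dependent member, rose by 0.81 ± 0.28 (edgeR adjusted p = 0.043), a call kept in 4 of 12 alternatives, with adjusted p up to 0.63. With the replicate number as a block 8 members rose, the added ones being miR-3180, miR-3180-3p, miR-3928-3p and the let-7 seed member miR-4500, and 32 fell. Over all 577 miRNAs the block gave 192 rises and 175 falls, against 147 and 117 with no block. On the scale of the DROSHA-independent list, which moved the median of all miRNAs by -0.63, 3 members rose and 42 fell, while over all 577 miRNAs 22 rose and 241 fell.

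**Figure D5:**
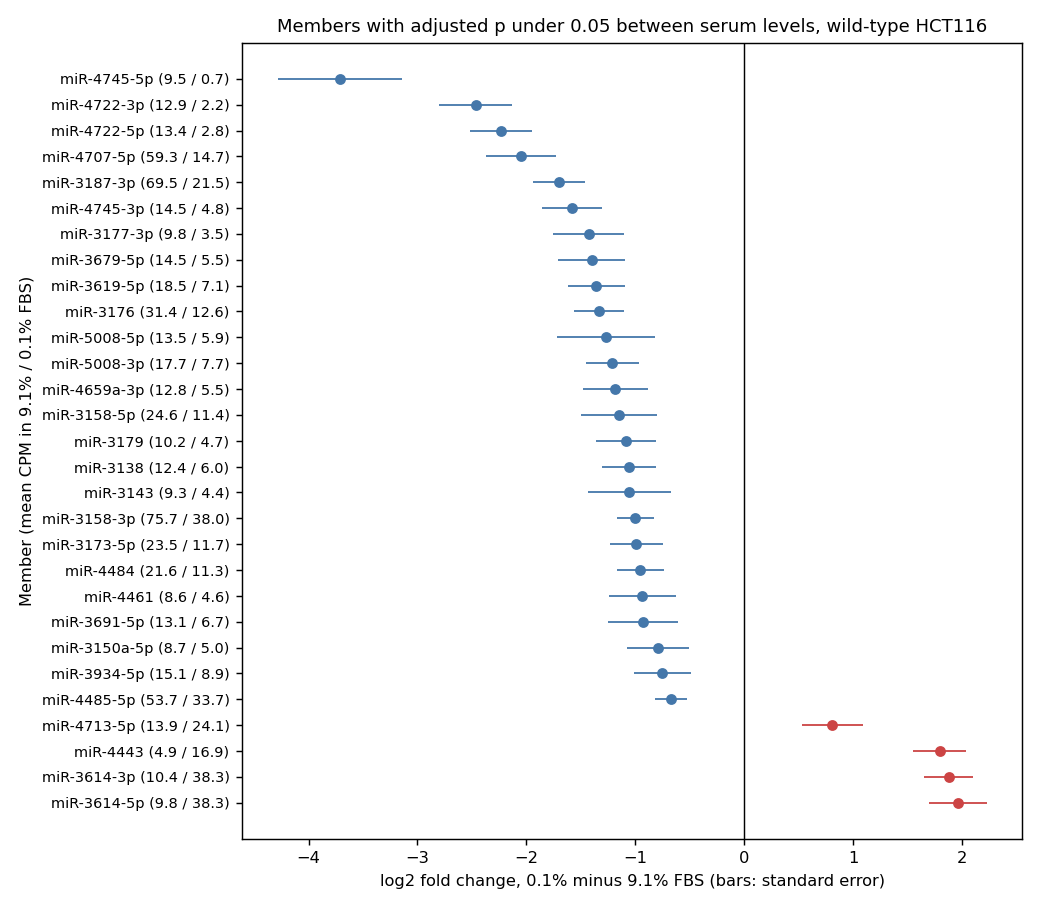
log2 fold change of 0.1% against 9.1% FBS in wild-type HCT116 for the 29 members past edgeR's test at an adjusted p under 0.05, with standard errors; the mean CPM in 9.1% and 0.1% FBS stands beside each name. The 25 falls (blue) run from -3.72 to -0.67 and the 4 rises (red) are led by miR-3614-5p at 1.96.

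Several members share their letters with other RNA. miR-4485-3p occurs without mismatch in MT-RNR2, the large ribosomal RNA of mitochondria, and miR-4284 in MT-TF, the mitochondrial phenylalanine tRNA, so reads of either source cannot be told apart. miR-4485-3p was kept in the knockout and rose with p140 in HCT116 (log2 change 1.27 ± 0.31; 31, 38 and 47 reads against 36, 43 and 36 in the smaller p140 libraries), a sign that flips on the scale of the DROSHA-independent list, while in HEK293E it changed by 0.01 ± 0.43. miR-4284 rose by 1.04 ± 0.38 in HCT116. A total of 9 members are listed under several hairpins and cannot be assigned to 1 of them: miR-3158-3p, miR-3158-5p, miR-3687, miR-3648, miR-3130-5p, miR-4435, miR-3180, miR-3180-3p and miR-3179.

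By sequence, the members were richer in G and C than other miRNAs, with a median of 60.4% over the 76 with a sequence against 50% over 490 others with at least 100 reads and 45.5% over 289 with numbers 1 to 500 and let-7. The kept members had a median of 65.8% and the dependent ones 59.1%. A final AG, the letters that end an intron, was found in 11 of the 76 (14.5%) and in 12.1% of all 2370 mature sequences in RefSeq. Among the kept members it was 4 of 16 and among the dependent ones 1 of 12. By position, 52 of the 90 lay in introns only, and 18 between genes on their strand, each by the hairpin used. For 6 the hairpin touched an exon in every transcript that spans it, also where the arm itself ends at an intron's end as for miR-3605-3p, and for 14 in some transcripts only.

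Over the means of the 6 replicated groups, the miRNA whose level most resembled that of each leading member was found among 485 miRNAs by Pearson's r of log2(CPM + 1), given as a description. miR-3620-3p was most like miR-1226-3p (0.998), a mirtron of the DROSHA-independent list. miR-3605-3p was most like miR-3615 (0.996) and then its fellow member miR-3928-3p (0.993). For miR-4443 it was miR-4286 (0.998), for miR-4664-5p miR-185-5p (0.992), for miR-3613-5p miR-148a-5p (0.995) and for miR-3176 miR-32-3p (0.984). The 6 means come from 2 lines and share their libraries.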

How the data were processed

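Small RNA of HCT116 and HEK293E cells was sequenced in 20 libraries. For every library the authors deposited raw read counts, as whole numbers for each mature miRNA under each of its hairpins. The submitters' processing notes name hg38 and the tools cutadapt, STAR and bedtools; versions and the handling of multi-mapping reads were not stated in the labels or files. Spike-in RNAs named in the labels' protocol were not used here. Whether the random bases of the adaptors were used to count molecules was not stated, so counting intervals and floors (3 counts) cover counting error of reads only. Where a mature miRNA was listed under several hairpins, the copy with the highest total was used.

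Members, lists, tests and the rule for named miRNAs were chosen with earlier results of these data known. Each comparison had 3 libraries a group and was fitted alone (the interaction over 12 libraries) in edgeR 4.0.16 (R 4.3.3): TMM scaling, filterByExpr with 10 as its minimum count, the two-sided quasi-likelihood F test, and Benjamini-Hochberg adjustment over all miRNAs tested, called at 0.05. Levels given with a test are TMM-scaled CPM, other levels plain CPM, and log2 changes are ± SE. On simulated counts for the HCT116 comparison (433 miRNAs), 100% of changes of 2 on the log2 scale were called, 84% of rises and 65.2% of falls of 1, and 2% of unchanged miRNAs. The simulation gave all miRNAs the same spread, as many rises as falls, and no library apart from the rest as replicate 3 is here. Its rates therefore do not carry over to these data.

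Named members were the 12 with the most reads, up to 10 falls and 10 rises per p140 comparison and 5 per other comparison (adjusted p under 0.05, at least 20 CPM, no overlap), all kept members, their other arms and seed partners. Others named (low-count falls, mitochondrial matches, arms near intron ends, dependent members) were chosen after their values were seen. Hairpins were placed on GENCODE 29 models of hg38. Replicate numbers come from the titles. Same-numbered libraries deviated together in the p140 comparisons (r 0.41, 0.32 and 0.64 in HCT116, 0.46, 0.31 and 0.29 in HEK293E). They did so in the serum comparison too (0.26, 0.15 and 0.67), but not between the lines (-0.12, 0.13 and -0.10). Replicates 1 and 2 also deviated together across numbers, in HCT116 (0.25 and 0.32) and in serum (0.48 and 0.26). There both replicates numbered 3 stood apart, and 1 and 2 were not told apart by number. In HEK293E different numbers gave -0.38 to 0.12. Whether the numbers pair samples is thus open outside HEK293E. The replicate block was kept as an alternative in every comparison, also in HEK293E, where its counts stand beside the main ones. Alternatives were DESeq2 1.42.0, no count filter, scaling to the DROSHA-independent list, the replicate block, copies summed, leaving out libraries, and for the knockout the CPM scale, other wild-type libraries and a bound of 2-fold.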

Additional observations from a re-analysis of the deposited data

Results flagged for a closer look

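The change with p140 differed between the lines for 2 members, by the interaction of line and DROSHA form in edgeR. miR-4722-5p differed by -6.35 on the log2 scale (HEK293E minus HCT116), with 10 reads in HEK293E with full-length DROSHA and none with p140, so the fitted size depends on the prior count. In HCT116 it had 23, 25 and 16 reads with full-length DROSHA and 37, 20 and 20 in the smaller p140 libraries. miR-3188 differed by -2.05, standing at 10.1, 13.0 and 9.83 against 62.4, 50.1 and 35.8 CPM in HCT116 and at 54.4, 36.8 and 46.4 against 45.7, 34.9 and 65.9 in HEK293E. The miR-3188 call was lost in most alternatives, with adjusted p up to 0.48, and that of miR-4722-5p in some, up to 0.16.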

How the results depend on the processing

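Counts of members called moved by over 1.5 times as follows. On the scale of the DROSHA-independent list 0 rose with p140 in either line, 5 fell in HEK293E, 42 fell in low serum, 11 were higher in HEK293E than in HCT116 and 0 differed in the interaction. Over all miRNAs on that scale, 0 of 446 rose with p140 in HCT116 and 4 of 416 in HEK293E, where 212 fell. In low serum 241 of 577 fell, and 107 of 517 were higher in HEK293E than in HCT116. On that scale these rises in HCT116, of those the naming rule took, reversed: miR-3143 (-0.30), miR-3605-3p (-0.066), miR-3605-5p (-0.40), miR-3614-3p (-0.42), miR-3614-5p (-0.48), miR-3928-3p (-0.34), miR-3929 (-0.27), miR-4485-3p (-0.48), miR-4485-5p (-0.70), miR-4722-3p (-0.083), miR-4722-5p (-0.17), miR-4728-3p (-0.12), miR-4745-5p (-0.041), miR-4785 (-0.34) and miR-5100 (-0.15). With DESeq2 7 fell with p140 in HCT116, 16 fell in low serum, 17 were lower in HEK293E than in HCT116 and 1 differed in the interaction. Without the count filter the numbers were 12 (falls in HCT116), 21 (lower in HEK293E) and 1 (interaction), the first 2 with more members tested, and with copies summed 1 differed in the interaction. With the replicate block, which takes the numbers to pair samples, 12 rose with p140 in HEK293E, 8 rose in low serum and 15 differed in the interaction. Over all miRNAs the block gave 70 rises of 416 in HEK293E and 192 of 577 in low serum. No other count of members called moved by over 1.5 times with the block. Without both replicates numbered 3 the counts were 1 rise and 1 fall in HEK293E and 4 in the interaction. For the knockout, 0 members were dependent and 45 kept in plain CPM, 45 were dependent and 27 not resolved against 9.1% FBS, and 23 were dependent and 13 kept with a bound of 2-fold. Leaving out each library in turn gave 16 to 42 rises and 3 to 7 falls with p140 in HCT116, 2 to 6 and 2 to 4 in HEK293E, 3 to 4 rises and 18 to 26 falls in low serum, 14 to 18 higher and 5 to 17 lower in HEK293E than in HCT116, and 0 to 16 in the interaction. Beyond the list scale and the bounds, the cause of these shifts was not tested. The knockout library holds 38288 reads, and 55 members were not resolved there.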
